A study of Mus musculus with 2 samples.

Results

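The microRNAs of the miR-29 family were described at their 4 genomic loci, Mir29a, Mir29b-1, Mir29b-2 and Mir29c, in small RNA of the mouse left cerebral cortex. The loci were found by their Ensembl gene identifiers in the GENCODE M21 annotation and are 4 of the 2202 microRNA loci counted. RNA below 30 nt was sequenced from 14 day old female B6CASTF1/J mice, first-generation hybrids between C57BL/6J and CAST mice. There is 1 group of 2 biological replicates, with no treatment, mutation or second tissue in the labels, so levels were compared between the libraries and among loci. The label of replicate 1 mentions several females and that of replicate 2 a single female, and both carry the same donor record. Whether replicate 1 pools animals, and how far the spread is technical, cannot be told from these labels.

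A microRNA is cut from a hairpin in a primary transcript, first in the nucleus and then in the cytoplasm, and a mature strand from the 5p or the 3p arm of the hairpin is loaded into an Argonaute protein. It represses mRNAs that pair with its seed, bases 2 to 8 from its 5′ end. The miR-29 family is known to rise as mouse cortical neurons mature. Known targets include the DNA methyltransferase gene Dnmt3a, pro-apoptotic genes of the BH3-only class and several collagen genes. The family is encoded by a pair of clusters, each with the hairpins of miR-29b and of a relative, miR-29a or miR-29c.

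The 4 loci encode 3 different 3p sequences with 1 seed. They are shown because they decide which reads can be placed at a single locus. Sequences are RefSeq's on GRCm38.p6 (4 of 4 loci matched by symbol, with hairpins identical to those of GENCODE), 5′ to 3′, with the seed in capitals.
miR-29a-3p: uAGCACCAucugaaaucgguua
miR-29c-3p: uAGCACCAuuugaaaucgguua
miR-29b-3p (from Mir29b-1 and Mir29b-2): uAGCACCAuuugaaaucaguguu
Among 1738 mature entries in this table the seed AGCACCA occurred in 4, those of the 4 loci, so no other listed microRNA shared it. With positions counted from 1 at the 5′ end, miR-29a-3p and miR-29c-3p differ by 1 substitution, C10U. From miR-29c-3p to miR-29b-3p the substitutions over the first 22 bases are G18A, U21G and A22U. The last 6 bases of miR-29b-3p, AGUGUU, are known from human cells as an element that directs a microRNA to the nucleus. These letters end 2 of 1674 distinct mature sequences (0.119%), the other being miR-92b-5p. The bases UUU at positions 9 to 11, known from human cells for fast decay of miR-29b, are present in miR-29b-3p and miR-29c-3p and in 24 of 1674 distinct mature sequences (1.43%), whereas miR-29a-3p has UCU there. The decay of these RNAs was not measured in the files.

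The 5p arms differ at each locus and are shown, seed in capitals, since they separate the pair of miR-29b loci.
miR-29a-5p: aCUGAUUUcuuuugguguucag
miR-29c-5p: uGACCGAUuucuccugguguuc
miR-29b-1-5p: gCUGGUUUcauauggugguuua
miR-29b-2-5p: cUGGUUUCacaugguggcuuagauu
The 4 seeds differ from each other, and that of miR-29b-2-5p, UGGUUUC, also occurs in 1 mature sequence outside the family, from Mir6338. The counts do not say from which arm a read came.

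Mir29a (identifier ENSMUSG00000065610.1, chr6:31062660-31062747) and Mir29b-1 (ENSMUSG00000065604.2, chr6:31063023-31063093) lie on the minus strand of mm10, with 275 bases between them. Mir29a overlaps no other annotated gene, and Mir29b-1 overlaps an exon of the long non-coding RNA Gm27019 by 2 bases. Mir29b-2 (ENSMUSG00000065412.3, chr1:195037040-195037120) and Mir29c (ENSMUSG00000065548.1, chr1:195037547-195037634) lie on the plus strand with 426 bases between them. Both lie wholly in an exon of 1 of the 4 transcripts of the non-coding host gene A330023F24Rik. On the opposite strand both overlap an untranslated exon sequence of Cd46, which encodes a complement regulator. No read was counted on the opposite strand of any of the 4 loci in either library, and counts of 0 leave room for 1.09 CPM (replicate 1) and 0.935 CPM (replicate 2), the worth of 3 reads. CPM are reads scaled to a total of 1000000 gene-assigned reads.

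**Figure D1:**
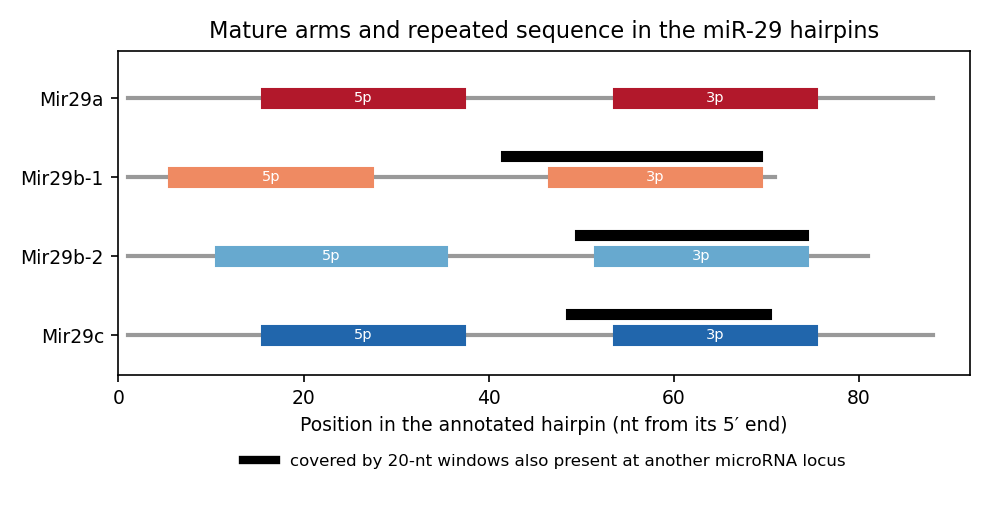
Each annotated hairpin runs from its 5′ end (x axis, nt), with the 5p and 3p arms as coloured boxes and, in black, the part covered by stretches of 20 nt that also occur at another microRNA locus. The black bars cover the whole 3p arm of Mir29b-1 and Mir29b-2 and part of that of Mir29c, and Mir29a has none.

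Sequence repeated at another locus bears on these counts, since reads that mapped to several places entered no gene count. They made up 40.6% of the 7745369 reads of replicate 1 and 37.9% of the 9627908 reads of replicate 2. Gene-assigned reads numbered 2740332 (35.4%) and 3207941 (33.3%). The loci of miR-29b share an unbroken stretch of 25 nt, shown here with the 3p arm in capitals, and Mir29c and Mir29b-1 share a stretch of 22 nt.
Mir29b-1 and Mir29b-2: ucUAGCACCAUUUGAAAUCAGUGUU
Mir29c and Mir29b-1: uugucUAGCACCAUUUGAAAUC
All 4 windows of 20 nt inside the miR-29b-3p arm occur at both miR-29b loci, so a read made of that arm alone has more than 1 place of origin. None of the windows inside the 5p arms of Mir29b-1 (3 windows) or Mir29b-2 (6 windows) occurs at another microRNA locus. For Mir29c the shared stretch takes in 17 bases of the 3p arm and 5 bases before it, and none of the 3 windows inside its 3p arm is shared. Mir29a has no shared window among 69, and its longest stretch identical to another microRNA locus is 14 nt. Levels of Mir29b-1 and Mir29b-2 are therefore uncertain as levels of miR-29b-3p, and reads of miR-29a-3p and miR-29c-3p are told apart by 1 base. Among the other GENCODE transcripts, windows of Mir29b-1, Mir29b-2 and Mir29c were found only in A330023F24Rik, the host gene of the chromosome 1 cluster. No window of Mir29a was found there. The number of mismatches allowed in mapping is not stated in any source used here, and genome sequence outside annotated transcripts was not searched.

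The family held a small share of the gene-assigned reads, similar in both libraries, and nearly all of its counted reads lay at Mir29a and Mir29c. The 4 loci had 4205 reads in replicate 1 and 5102 in replicate 2. This was 0.153% of gene-assigned reads in replicate 1 (exact Clopper-Pearson 95% interval 0.149 to 0.158%) and 0.159% in replicate 2 (0.155 to 0.163%), a mean of 0.156 ± 0.00396% (SD, n = 2). The labels state no molecular identifiers, so intervals and floors reflect counting error alone. All 4 loci reached 10 reads in both libraries, the minimum for calling a locus detected, against 389 of all 2202 loci (17.7%).

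Among 95 families with at least 2 loci of the same number in their symbol, 75 of them with reads, miR-29 ranked 18 by mean share. The families just above it were miR-219 of oligodendrocytes (0.211 ± 0.176%), miR-376 (0.187 ± 0.0231%) and miR-129 (0.165 ± 0.0577%). Those just below were miR-467 (0.129 ± 0.0139%), miR-34 (0.105 ± 0.0692%) and miR-195 (0.0957 ± 0.0621%). The gaps to miR-219, miR-129, miR-34 and miR-195 were smaller than the larger SD of each pair, so these ranks were not resolved, whereas those to miR-376 and miR-467 exceeded the SDs. The first of all families was let-7, at 27.1 ± 3.94%. These ranks are of gene-assigned reads only, since reads at several places entered no count. A family with a mature sequence repeated among its loci, such as miR-29, may therefore rank lower than its RNA would.

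Mir29a, whose mature 3p differs from its relatives in the middle bases, had 3283 reads in replicate 1 and 4448 in replicate 2. Its level was 1198 CPM (95% interval 1157 to 1240) in replicate 1 and 1387 CPM (1346 to 1428) in replicate 2, or 1292 ± 133 CPM (SD, n = 2). It ranked 92 and 96 among all loci in the libraries and lay above 75.8% of the detected loci by mean level. The libraries were within 1.5-fold of each other for this locus, although their counting intervals, on levels scaled by library totals, did not overlap. This depends on the scaling, since the between-library ratio given below, scaled otherwise, had an interval that included 0.

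Mir29c, the other locus with a 3p sequence of its own, had 735 reads in replicate 1 and 490 in replicate 2. Its level was 268 CPM (249 to 288) in replicate 1 and 153 CPM (140 to 167) in replicate 2, or 210 ± 81.6 CPM. It was high in replicate 1 and lower in replicate 2 beyond counting error, and ranked 156 and 192.

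The miR-29b loci were far lower. Mir29b-2 had 119 reads (43.4 CPM, 36.0 to 52.0) in replicate 1 and 99 reads (30.9 CPM, 25.1 to 37.6) in replicate 2, or 37.1 ± 8.88 CPM. Mir29b-1 had 68 reads (24.8 CPM, 19.3 to 31.5) in replicate 1 and 65 reads (20.3 CPM, 15.6 to 25.8) in replicate 2, or 22.5 ± 3.22 CPM. By mean level they lay above 34.4% and 27.2% of the detected loci. In both libraries the order was Mir29a, Mir29c, Mir29b-2, Mir29b-1, and no locus overlapped the next over the 2 libraries. The counting intervals of Mir29b-2 and Mir29b-1 did overlap in replicate 2. With 2 libraries no exact permutation test can give a p below 0.5, so the order is given without a test. Levels are per locus and are not divided by the hairpin length, which is 71 to 88 nt.

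**Figure D2:**
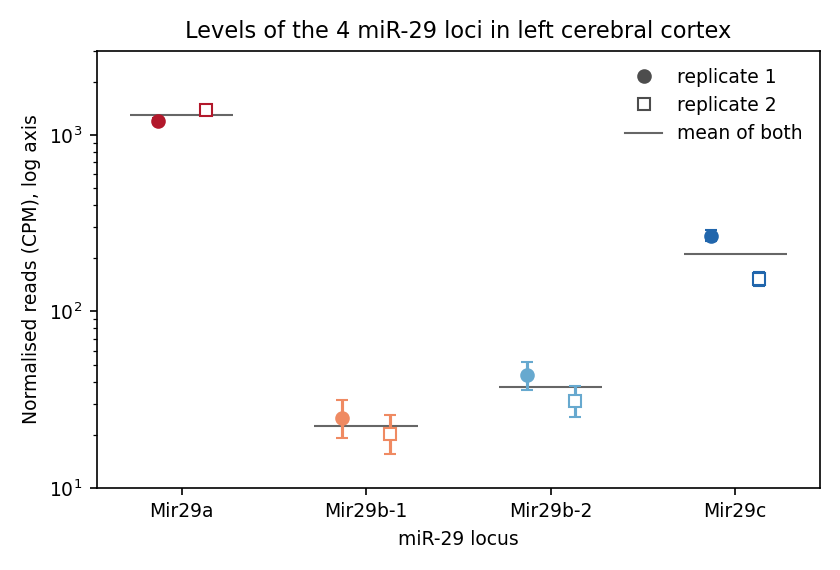
Level of each miR-29 locus (CPM, log axis) in replicate 1 (filled circles) and replicate 2 (open squares), with exact 95% counting intervals and a line at the mean of both. Mir29a lies near 1292 CPM, Mir29c near 210 CPM, and the miR-29b loci between 20.3 and 43.4 CPM.

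The composition of the family does not depend on how the libraries are scaled. Mir29a made up 78.1% of the family's reads in replicate 1 (95% interval 76.8 to 79.3%) and 87.2% in replicate 2 (86.2 to 88.1%). Mir29c made up 17.5% (16.3 to 18.7%) in replicate 1 and 9.60% (8.81 to 10.4%) in replicate 2. For these 2 loci the libraries differed beyond counting error. Mir29b-2 held 2.83% and 1.94%, and Mir29b-1 held 1.62% and 1.27%, in replicates 1 and 2. The loci of miR-29b together held 4.45% of the family's reads in replicate 1 and 3.21% in replicate 2. The cluster of Mir29a with Mir29b-1 held 79.7% in replicate 1 and 88.5% in replicate 2, and that of Mir29b-2 with Mir29c held 20.3% and 11.5%.

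**Figure D3:**
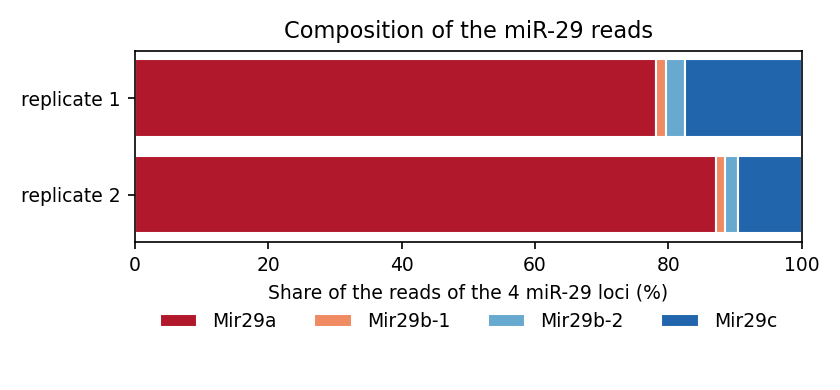
Share of the reads of the 4 loci (x axis, percent) taken by each locus, with 1 bar per library. Mir29a takes 78.1% in replicate 1 and 87.2% in replicate 2, and Mir29c takes 17.5% and 9.60%.

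Loci of the same cluster were then compared within each library. Mir29a had 48.3 times the reads of its neighbour Mir29b-1 in replicate 1 (95% interval 38.0 to 62.3) and 68.4 times in replicate 2 (53.6 to 88.8), a mean log2 ratio of 5.84 ± 0.36 (SD, n = 2). Mir29c had 6.18 times the reads of Mir29b-2 in replicate 1 (5.08 to 7.56) and 4.95 times in replicate 2 (3.98 to 6.21), a mean log2 ratio of 2.47 ± 0.23. By counted reads the miR-29b locus was thus the lower one of each cluster in both libraries. Between the clusters, Mir29a had 4.47 times the reads of Mir29c in replicate 1 (4.12 to 4.85) and 9.08 times in replicate 2 (8.27 to 9.99), a mean log2 ratio of 2.67 ± 0.72. Mir29b-1 had 0.571 times the reads of Mir29b-2 in replicate 1 (0.418 to 0.776) and 0.657 times in replicate 2 (0.473 to 0.907), a mean log2 ratio of −0.71 ± 0.14. By counted reads the chromosome 6 cluster was the higher at the loci with their own 3p sequence and the lower at the miR-29b loci, in both libraries. A read made only of the miR-29b-3p arm fits both miR-29b loci, and reads at several places entered no count. The miR-29b loci therefore do not give the order of the clusters by RNA.

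These ratios were set beside those of all neighbouring microRNA loci on the same strand no more than 10 kb apart. Of 353 such pairs 85 had both loci detected, and their absolute mean log2 ratio had a median of 3.14 (quartiles 1.35 and 4.74). Mir29a with Mir29b-1 stood at place 11, and Mir29b-2 with Mir29c at place 51, so unequal levels within a cluster were common. The log2 ratio of a pair differed between the libraries by a median of 0.34, against 0.50 for Mir29a with Mir29b-1 and 0.32 for Mir29b-2 with Mir29c. The pairs with the highest summed level included Mir433 with Mir127 at an absolute log2 ratio of 1.55 and Mirlet7c-2 with Mirlet7b at 5.00.

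In 15 of the 82 pairs with RefSeq entries for both loci, exactly 1 locus had a mature arm that is also present at another locus, as Mir29b-1 and Mir29b-2 do. That locus was the lower one in both libraries in 13 of the 15, with a median log2 ratio of the other locus over it of 4.19. Mir29a with Mir29b-1 was at place 3 of these and Mir29b-2 with Mir29c at place 9. The exceptions were Mir15a with Mir16-1 (log2 ratio −0.38) and Mir192 with Mir194-2 (−0.70), a pair named after its values were seen. In the 63 pairs without a repeated arm the median absolute log2 ratio was 3.03, and 6 of them exceeded Mir29a with Mir29b-1. How many miR-29b reads were set aside as mapping to several places was not tested.

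**Figure D4:**
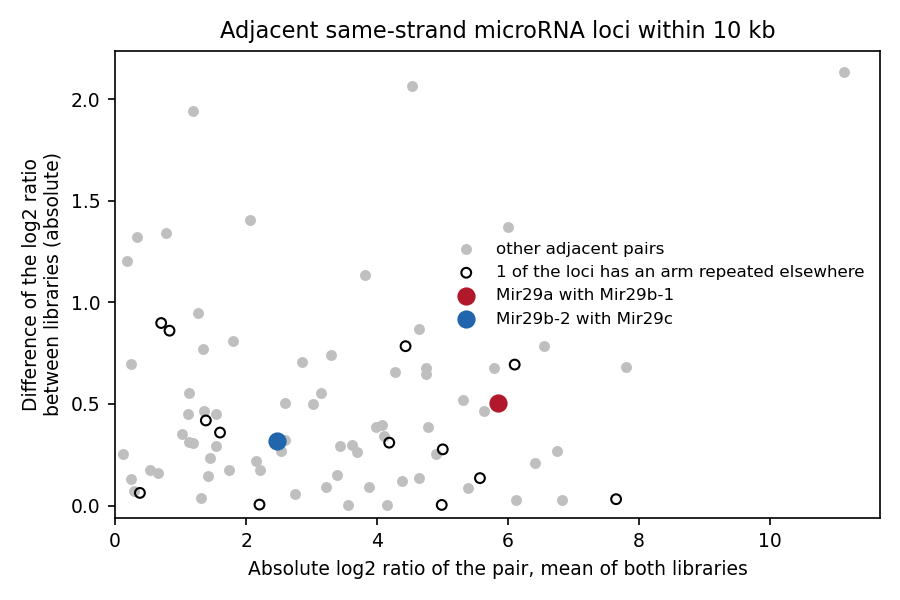
Each point is a pair of neighbouring detected microRNA loci. The x axis gives the absolute log2 ratio of their reads (mean of both libraries) and the y axis the absolute difference of that ratio between the libraries, both in log2 units. Open circles are pairs in which 1 locus has an arm repeated elsewhere, and the miR-29 pairs lie at 5.84 and 2.47.

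Other paralogous clusters gave the following values for loci with repeated and unrepeated arms. Mir24-1 and Mir24-2, whose mature arm is shared, had 45.5 ± 4.93 and 23.0 ± 6.72 CPM, against 14311 ± 1317 CPM for Mir23b and 6391 ± 556 CPM for Mir23a, which head the same clusters. Loci without a repeated arm were not always high, since Mir27b and Mir27a of these clusters had 839 ± 216 and 72.1 ± 32.9 CPM, and Mir212 had 476 ± 103 CPM beside Mir132 at 9108 ± 961 CPM. Mir30c-1 had 123 ± 31.8 CPM and its neighbour Mir30e 2638 ± 326 CPM. In the clusters of miR-181a with miR-181b each locus has a repeated arm, and the higher locus differed by cluster, with Mir181a-1 at 869 ± 93.2 CPM over Mir181b-1 at 34.8 ± 6.01 CPM, and Mir181b-2 at 5169 ± 1013 CPM over Mir181a-2 at 23.0 ± 3.15 CPM.

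The libraries were compared by the log2 ratio of replicate 1 over replicate 2, after scaling by the trimmed mean of M values (TMM). These ratios set 1 library against 1 and say nothing of conditions, and no p-value is given. The reads of the 4 loci together had a ratio of 0.12 (95% counting interval 0.062 to 0.18), although their share of gene-assigned reads was slightly lower in replicate 1. Mir29c had a ratio of 0.98 (95% counting interval 0.82 to 1.15), a level 1.98-fold higher in replicate 1. Mir29b-2, its neighbour, had 0.67 (0.27 to 1.06), or 1.59-fold. Mir29b-1 had 0.46 (−0.047 to 0.98) and Mir29a −0.038 (−0.10 to 0.027), and both intervals included 0. The loci of the chromosome 1 cluster were thus both past 1.5-fold and higher in replicate 1. The interval of Mir29b-2 reached below 1.5-fold, however, and overlapped that of Mir29b-1.

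That makes 2 of 4 miR-29 loci at least 1.5-fold higher in replicate 1 and 0 of 4 lower. Of all 389 detected loci 56 were higher (14.4%) and 71 lower (18.3%), together 127 (32.6%). The median log2 ratio was 0.57 over the 4 loci and 0.0098 over all detected loci, whose SD was 0.70. A ratio at least as far from 0 as that of Mir29c was found at 47 detected loci (12.1%). Of the 61 detected loci within 2-fold of the mean level of Mir29c, 17 (27.9%) were past 1.5-fold. When libraries were scaled by their totals alone, the median of all detected loci moved to −0.16, Mir29b-2 fell short of 1.5-fold (0.49), and Mir29c was the only miR-29 locus past it (0.81). The split of all loci past 1.5-fold was then 32 higher and 91 lower, and Mir29a had a ratio of −0.21 (−0.28 to −0.15).

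**Figure D5:**
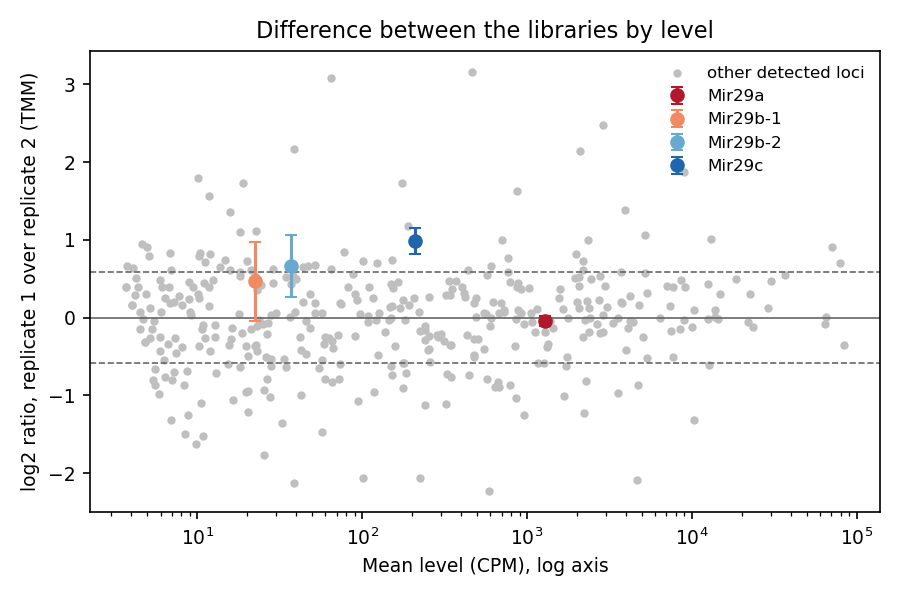
Each point is a detected locus, by mean level (x axis, CPM, log axis) and log2 ratio of replicate 1 over replicate 2 after TMM scaling (y axis). Bars are 95% counting intervals, and dashed lines mark 1.5-fold. Mir29c (0.98) and Mir29b-2 (0.67) lie above the upper line, and Mir29a lies at −0.038.

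Lists of cell type markers were also compared between the libraries. For the counts past 1.5-fold below, the share among all 389 detected loci was 32.6%. The 3 oligodendrocyte loci, all detected, took 0.428% of gene-assigned reads in replicate 1, against 0.148% in replicate 2, led by Mir219a-2 at 3339 and 853 CPM. Mir219a-2 (log2 ratio of replicate 1 over replicate 2 of 2.14) and Mir338 (0.76) were past 1.5-fold, and Mir219a-1 (0.40) was not. In replicates 1 and 2 the 3 endothelial and mural loci held 2.12% and 1.36%, and the 3 erythroid loci 0.0976% and 0.0585%. In the endothelial and mural list and in the erythroid list 1 of 3 loci was past 1.5-fold. These were Mir126a (log2 ratio of replicate 1 over replicate 2 of 1.01) and Mir451a (1.00), whereas Mir145a (−0.36) and Mir144 (−0.13) had ratios of the opposite sign. The 3 Mir124a loci of the neuron list were not detected, with 4.01 and 9.04 CPM in sum in replicates 1 and 2. Whether reads at several places held more of their RNA was not tested. The neuron list, with 8 of 11 loci detected, held 3.45% and 4.44%, with Mir132 the highest locus in replicate 1 and Mir128-1 in replicate 2. Its loci went both ways, with 2 at least 1.5-fold higher in replicate 1, among them Mir138-1 (1.07), named after its value was seen, and 3 lower, among them Mir128-1 (−1.32). The microglia and leukocyte list (4 of 5 detected) held 0.156% and 0.189%, with 1 locus past 1.5-fold in each direction and a median ratio of 0.17, and the choroid plexus list (1 of 2) 0.0447% and 0.0899%. The neuron list and a muscle list do not check the tissue label. The Mir124a loci of the neuron list were not detected, and muscle loci without reads are not shown to be absent. Of the muscle list, 5 of 6 loci had 0 reads in both libraries, and Mir206 had 28.8 and 31.2 CPM. Several of these muscle loci have a mature sequence found at more than 1 locus, so 0 reads do not show that the microRNA is absent. The liver locus Mir122 had 60.9 and 43.0 CPM. The part of these differences in those of Mir29c and Mir29b-2 was not tested. In bulk tissue, fewer cells of a type and less RNA per cell cannot be told apart.

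The detected loci most like each member were found by the distance of log2(CPM + 1) over the 2 libraries, which compares levels only. Mir29a was nearest to Mir376a (1120 and 1435 CPM in replicates 1 and 2, distance 0.11), Mir540 (0.13) and Mir666 (0.22). Mir29c was nearest to Mir449a, a locus known from ciliated cells, with 255 and 127 CPM at a distance of 0.27, followed by Mir30c-2 (0.52) and Mir18 (0.56). Mir29b-1 was nearest to Mir6516 (0.047), Mir486 (0.085) and Mir190a (0.16), and Mir29b-2 to Mir5099 (0.11), Mir181b-1 (0.15) and Mir32 (0.16). None of the 4 loci had another miR-29 locus among its nearest 3.

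The hairpins were also compared over their whole length, mature arms included. Mir29a and Mir29c were 76.7% identical in a global alignment, and Mir29b-1 and Mir29b-2 were 73.2% identical, against 55.9 to 62.8% for the other 4 pairings. Each locus was thus most like a locus of the other cluster. The predicted folding energy was −34.1 kcal/mol for Mir29a, −34.8 kcal/mol for Mir29c, −31.1 kcal/mol for Mir29b-2 and −26.3 kcal/mol for Mir29b-1. The weakest value belonged to the shortest hairpin, of 71 nt.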

How the data were processed

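Small RNA libraries of 2 replicates in 1 group were analysed. The values deposited by the authors are whole-number counts of reads at each annotated microRNA, on mm10 with GENCODE M21, per the file list that accompanies them. How reads were trimmed, aligned and counted is not given in the sources used here. The meaning of the 3 count columns was read from the values, and the column of reads on the RNA strand was used. Library totals exclude 4 rows without a gene. In replicates 1 and 2 they held 18.1% and 22.8% unmapped reads, 40.6% and 37.9% reads at several places, and 5.93% and 6.03% reads on no microRNA gene.

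Symbols and positions came from GENCODE M21, in which all 2202 identifiers matched. Between-library ratios used edgeR 4.0.16 (TMM) over loci with at least 10 reads in each library, with exact conditional binomial intervals. On Poisson counts simulated for these 389 loci the intervals held the true ratio at 94.9%. The intervals assume such counts, so this checks the calculation and not the spread between real libraries. Hairpins were folded with ViennaRNA 2.7.2 and aligned with Biopython 1.88. The alternatives were DESeq2 1.42.0 size factors, library totals, the column without strand, other read minimums, a pseudocount, a denominator with several-place reads, and each replicate left out.

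The members, lists and tests were chosen with earlier results of these data known. Named loci were the members, 3 nearest loci each, neighbouring families, the 5 highest adjacent pairs, a list of paralogous clusters and the highest cell type markers.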

Additional observations from a re-analysis of the deposited data

How the results depend on the processing

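No paired analysis was possible because there is 1 group. Among the recomputed values none changed direction, and 10 moved by more than the spread between the libraries, the counting interval or 1.5 times the count. Leaving out 1 of 2 libraries cannot move a mean past that spread, and shares and ratios among the 4 loci cannot change in the column without strand, where their counts are identical, so these alternatives say nothing of stability. With reads at several places added to the denominator, Mir29a fell to 604 CPM, Mir29c to 98.2, Mir29b-2 to 17.3 and Mir29b-1 to 10.5 CPM, and the family to 0.0730% of reads, since the denominator is larger by construction. In the column without strand the family held 0.168%, because fewer reads were assigned in total there while the counts of the 4 loci were identical. Scaled by library totals, the log2 ratio between the libraries was −0.21 for Mir29a and 0.81 for Mir29c. The count of loci past 1.5-fold was 127 with at least 10 reads, 79 with at least 50 (283 loci) and 281 with at least 1 (616 loci), with fewer or more loci compared. Leaving out a replicate gives the value of the other library, for Mir29a 1198 to 1387 CPM, for Mir29c 153 to 268 CPM, for Mir29b-2 30.9 to 43.4 CPM, for Mir29b-1 20.3 to 24.8 CPM and for the family 0.153 to 0.159%. Depth limits Mir29b-1 and Mir29b-2 most, at 65 to 119 reads a library.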
